A study of Mus musculus with 6 samples.

Results

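The genes described here carry the names of subunits of voltage-gated calcium and sodium channels. All were measured in the small cell lung cancer line KP1, which comes from a mouse. They were taken by symbol from the platform annotation (Cacna, Cacnb, Cacng and Scn followed by a digit), 1 probe set per gene, the brightest of those that carry a single symbol. This gave 36 genes of the 22180 tested, 25 of calcium channels and 11 of sodium channels. Other genes of these families were not analysed here. All 36 were kept and no filter on dim signals was applied.

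Both groups are KP1 cells from an Rb/p53/p130 triple knockout mouse model, so the controls carry the same deletions. The N1ICD group (3 arrays) was transfected with activated Notch1, as Notch1-ICD-ires-GFP, and the control group (3 arrays) with an empty ires-GFP vector. GFP-positive cells of both groups were sorted 48 hours after transfection and total RNA was put on Mouse Gene 2.0 ST arrays. The labels call the samples biological replicates without saying whether they were separate cultures, so the p-values measure the spread between these arrays of 1 cell line, which may be partly technical. The species of the insert and the promoter of the vector are not given in the sources used here.

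Voltage-gated calcium channels open when the membrane depolarizes and let in the calcium that triggers hormone and transmitter release, while voltage-gated sodium channels carry the upstroke of the action potential. Each has a large pore-forming subunit that fixes the type of current, and smaller auxiliary subunits that take the pore to the membrane and tune its opening. Small cell lung cancer cells of the neuroendocrine kind share with neurons and endocrine cells the ability to fire action potentials, and calcium and sodium currents have been recorded from such cells. Active Notch1 opposes the neuroendocrine program in many tissues.

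The transfected gene was checked first. Notch1 had a log2 expression of 8.07, 7.49 and 7.72 in the N1ICD arrays, against 6.35, 6.20 and 5.96 in the control arrays. The groups did not overlap, and the difference was 3.01-fold (log2 change 1.59 ± 0.17 SE, adjusted p = 0.000889 in limma). A two-sided exact permutation test over the 20 assignments gave p = 0.1, which no design of 3 against 3 arrays can go below. The probe set may also cover parts of Notch1 outside the insert.

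The array medians over genes lay between 6.14 and 6.24 on the log2 scale, and arrays correlated at 0.991 to 0.994 within a group and 0.980 to 0.984 between groups, across genes, which are not independent replicates. Of 8 neuroendocrine markers 7 were measured, and their 6-array means lay between 8.54 and 12.1, above every array median. By the test below 2 of them rose, Chga (log2 change 0.64) and Ncam1 (0.53), and 1 fell, Insm1 (-0.89). The share called was 42.9%, against 7.10% of all genes and 11.6% of genes above every array median. Averaged over these 7, the level was 10.26 to 10.38 in N1ICD arrays and 10.25 to 10.33 in control arrays, with overlap. Of the marker lists for other cell types, the endothelial one had the widest gap between the groups. Its mean level was 7.32 to 7.52 in N1ICD arrays, against 6.32 to 6.45 in control arrays, through the receptors Kdr (log2 change 3.04) and Tek (1.06), while Pecam1 (0.07) and Cdh5 (-0.01) did not pass the test. The fibroblast list averaged 5.63 to 5.67 in N1ICD arrays and 5.83 to 5.90 in control arrays, without overlap. In it Pdgfra was lower (-0.74), and Col1a1, Col1a2, Col3a1, Dcn and Lum did not pass the test. Macrophage, muscle and glial lists averaged between 4.91 and 6.18 in all arrays, and in each of them 1 gene passed: Lyz2 (0.52), Actn2 (0.72) and Mbp (-0.49). The glial list was lower in N1ICD arrays (5.8271 to 5.9470) than in control arrays (5.9474 to 6.1799), with almost no gap. The macrophage and muscle lists overlapped between groups. The part of any of these in the results below was not tested. In bulk RNA, fewer cells with a transcript and less of it per cell cannot be told apart.

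Of the 36 channel genes, 5 rose and 1 fell in N1ICD cells, and 30 did not pass the test (limma, Benjamini-Hochberg adjustment over all genes, threshold 0.05). The rises were Scn3b (1.83-fold), Cacna1g (1.66-fold), Cacng4 (1.44-fold), Cacnb4 (1.41-fold) and Cacng2 (1.38-fold), and the fall was Cacna1d (1.53-fold). The share called was 16.7%, against 7.10% of all genes (3.82% higher and 3.27% lower). The count of falls depended on the setting. With genes under the 25th percentile of the 6-array mean left out 5 rose and 4 fell, with those under the 50th percentile left out 5 rose and 5 fell, and with an intensity trend and robust eBayes 6 rose and 5 fell. With the arrays set to equal medians, 4 channel genes rose and 2 fell, and over all genes 730 rose and 948 fell in place of 848 and 726. The median log2 change was 0.04 for the channel genes and -0.02 for all genes, and that of the channel genes was -0.01 under that scaling, which moved the median of all genes by -0.05. No test of these shares or medians was made. Of the 5 rises, 4 were auxiliary subunits by symbol. These 4 include Cacng2 and Cacng4, of the TARPs described below, which carry AMPA-type glutamate receptors. Of 18 auxiliary genes 4 rose and none fell by this test, with 7 at an unadjusted p under 0.05. Cacna2d3, an auxiliary gene, fell with both filters on dim genes, with the trend and without N1ICD replicate 3. When probe sets of a gene were averaged, Scn3b and Cacng4 were the 2 auxiliary genes that rose. Of 18 pore genes 1 rose and 1 fell, also with 7 at an unadjusted p under 0.05. Over all genes 19.9% had an unadjusted p under 0.05. Whether auxiliary and pore genes differ in this was not tested.

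In 14 of the 36 genes the arrays of the groups did not overlap, 8 higher and 6 lower in N1ICD. Over all genes this held for 26.1%, 11.1% higher and 15.0% lower. Beyond the called genes, these were Cacnb2, Cacna1e and Cacna2d4 on the higher side and Cacna1a, Scn7a, Cacna2d3, Cacna1h and Scn9a on the lower side. Signal strength bears on the calls. The 6-array mean lay below every array median for 17 channel genes, of which 1 was called (5.88%), against 2.49% of all genes as dim. It lay above every array median for 19, of which 5 were called (26.3%), against 11.6% of all genes as bright.

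**Figure D1:**
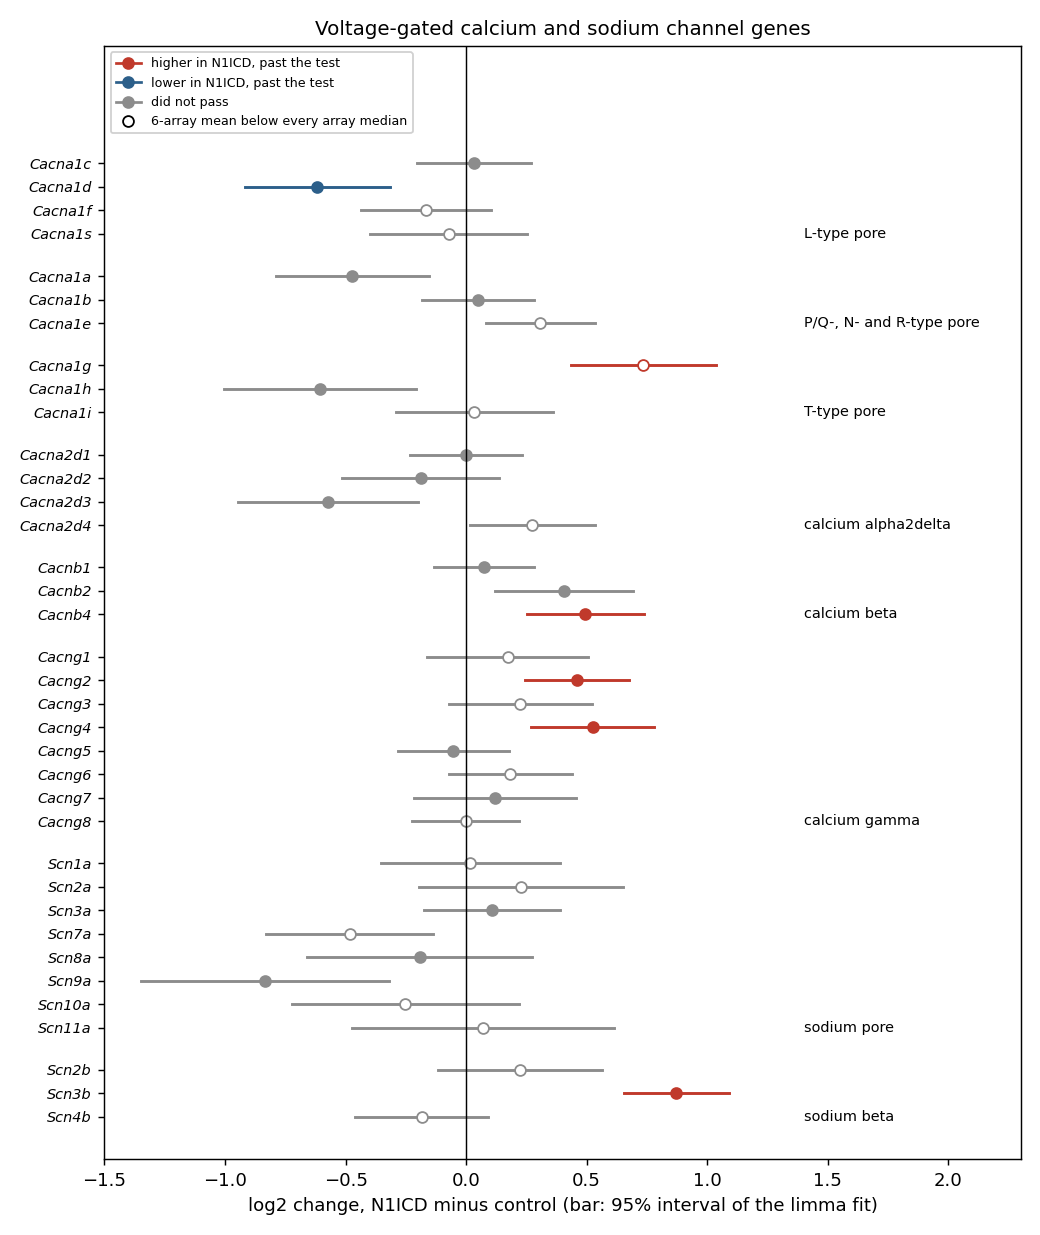
Log2 change (N1ICD minus control, horizontal axis) of all 36 channel genes by subunit class, with the 95% interval of the limma fit as bars; colours mark the test result and open circles a 6-array mean below every array median. Changes run from -0.83 (Scn9a) to 0.87 (Scn3b), and 5 genes are marked higher and 1 lower.

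Promoter sequences were at hand for 28 of the 36 genes (38 windows of 300 bases, 250 before and 50 after a transcription start, from RefSeq, GRCm38.p6). They were searched on both strands for the letters TGGGAA, the core bound by RBPJ, the DNA-binding partner of the Notch1 intracellular domain, and for CACGTG, a palindrome bound by HES and HEY repressors (a match of one can share the letters TG or CA with a match of the other). TGGGAA occurred in windows of 9 of the 28 genes (32.1%), against 28.3% of the 27025 genes in the table, and CACGTG in none of the 28, against 8.09%. Among the genes that passed the test, Cacng2, Cacnb4 and Cacna1d had windows. Those of Cacng2 and of 1 of the 3 Cacnb4 starts held TGGGAA on the opposite strand, and neither Cacna1d window held either motif. TGGGAA also occurred in windows of Cacnb1, Cacng3, Cacng5, Scn10a, Scn11a, Scn2a and Scn7a, none of which passed the test. Scn3b, Cacna1g and Cacng4, which passed, had no window. The windows below are those of called genes, for Cacnb4 only the 1 with the motif. Each reads 5′ to 3′ on the gene's own strand, which is the minus strand for all 4, and capitals mark the motif, here as its reverse complement.
Cacng2, chr15:78119231-78119530: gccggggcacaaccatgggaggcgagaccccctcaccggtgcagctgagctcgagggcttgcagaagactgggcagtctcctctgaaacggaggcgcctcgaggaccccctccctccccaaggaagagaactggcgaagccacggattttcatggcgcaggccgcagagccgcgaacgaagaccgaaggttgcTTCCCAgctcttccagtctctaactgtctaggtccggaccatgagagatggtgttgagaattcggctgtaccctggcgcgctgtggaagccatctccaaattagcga
Cacnb4, chr2:52675810-52676109: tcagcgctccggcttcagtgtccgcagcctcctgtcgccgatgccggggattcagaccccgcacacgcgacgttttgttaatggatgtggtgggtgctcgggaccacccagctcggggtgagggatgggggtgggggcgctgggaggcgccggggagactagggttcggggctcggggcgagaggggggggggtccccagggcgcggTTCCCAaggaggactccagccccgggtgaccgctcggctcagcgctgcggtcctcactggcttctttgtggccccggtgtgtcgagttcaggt
Cacna1d, upstream start, chr14:30491107-30491406: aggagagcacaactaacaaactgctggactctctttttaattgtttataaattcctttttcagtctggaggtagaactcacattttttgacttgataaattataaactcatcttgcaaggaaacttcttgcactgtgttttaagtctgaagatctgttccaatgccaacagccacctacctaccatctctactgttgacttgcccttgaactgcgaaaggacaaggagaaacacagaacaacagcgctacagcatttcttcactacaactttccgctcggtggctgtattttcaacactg
Cacna1d, downstream start, chr14:30353437-30353736: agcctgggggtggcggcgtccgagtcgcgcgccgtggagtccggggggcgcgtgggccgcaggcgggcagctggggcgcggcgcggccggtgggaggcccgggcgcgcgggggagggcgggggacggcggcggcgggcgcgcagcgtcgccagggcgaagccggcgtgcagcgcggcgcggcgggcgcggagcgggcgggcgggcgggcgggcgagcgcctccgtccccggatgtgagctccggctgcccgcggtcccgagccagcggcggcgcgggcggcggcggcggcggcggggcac
The capitals begin 57 bases before the start in Cacng2 and 43 bases before it in Cacnb4. The Cacna1d windows differ in base composition, with 40.3% G and C at the upstream start and 87.3% at the downstream one. A match is a description of the letters, and the share in the channel genes lies near that of all genes.

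Among the pores of L-type channels, which carry long-lasting calcium currents, Cacna1d fell and the other 3 did not pass. Cacna1d encodes an L-type pore that opens at fairly negative voltages and serves pacemaking and hormone secretion in endocrine cells. Its log2 expression was 6.50, 6.12 and 6.44 in the N1ICD arrays, against 7.13, 6.90 and 6.88 in the control arrays. All N1ICD arrays lay below all control arrays, by a gap of 0.38, and the change was -0.62 ± 0.13 (limma adjusted p = 0.0285). The call was lost whichever single array was left out, except N1ICD replicate 1 (limma adjusted p up to 0.09, without N1ICD replicate 2). Cacna1c, the L-type pore of heart and many endocrine cells, had 8.45, 8.20 and 8.30 in N1ICD arrays and 8.24, 8.36 and 8.24 in control arrays. These overlapped, with a change of 0.03 and a 95% interval from -0.20 to 0.27. Cacna1f, the pore of retinal photoreceptors, and Cacna1s, that of skeletal muscle, had changes of -0.17 and -0.07 at 6-array means of 4.76 and 5.51, below every array median.

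The P/Q-, N- and R-type pores, which feed calcium to release sites at nerve terminals, gave no call in limma. At an unadjusted p under 0.05 were 2 of 3, against 19.9% of all genes. Cacna1a, the P/Q-type pore, had 8.57, 8.20 and 8.40 in N1ICD arrays, against 8.80, 9.08 and 8.70 in control arrays. The groups did not overlap, and the change of -0.47 ± 0.14 missed the threshold (limma adjusted p = 0.0917). The fit was repeated under 14 alternatives, 8 other processing settings and each array left out in turn. Cacna1a passed under 2 of them, the filter on dim genes at the 50th percentile (limma adjusted p = 0.0335) and the intensity trend with robust eBayes (0.0337). Cacna1e, the R-type pore, went the other way, with 6.19, 6.31 and 6.11 in N1ICD arrays and 5.84, 5.88 and 5.97 in control arrays. Its change was 0.31 ± 0.10 (limma adjusted p = 0.119), again without overlap and at a 6-array mean below every array median. Cacna1b, the N-type pore, had 8.87, 8.67 and 8.72 in N1ICD arrays and 8.61, 8.73 and 8.77 in control arrays, with overlap and a change of 0.05 (95% interval -0.18 to 0.28).

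T-type pores open near the resting potential and give brief low-voltage currents. Cacna1g rose: it had 5.92, 5.45 and 5.66 in N1ICD arrays, against 4.89, 5.02 and 4.90 in control arrays. The groups were 0.42 apart, and the change was 0.74 ± 0.13 (1.66-fold, limma adjusted p = 0.0136), a call lost without control replicate 3 (limma adjusted p = 0.0518). Its signal lay below every array median in both groups (means of 5.67 in N1ICD and 4.94 in control arrays), where the array values compress changes. Cacna1h, a second T-type pore, had 8.52, 7.79 and 8.15 in N1ICD arrays, against 8.83, 8.78 and 8.67 in control arrays. All N1ICD arrays were lower, but they spread over 0.73 against 0.15 in the control arrays, and the change of -0.61 ± 0.17 missed the threshold (limma adjusted p = 0.0831). It passed under 6 of the 14 alternatives, among them equal array medians (limma adjusted p = 0.0485), both filters on dim genes and the fit without N1ICD replicate 1 (limma adjusted p = 0.0221). Cacna1i, the remaining T-type pore, overlapped between groups, at a mean of 5.50 ± 0.28 in N1ICD and 5.46 ± 0.03 in control arrays (SD, n = 3 each).

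The alpha2delta proteins sit on the outer face of the channel and raise the number of channels at the surface. None of the 4 passed in limma, with 2 at an unadjusted p under 0.05 (19.9% of all genes). Cacna2d3 had 7.56, 7.78 and 8.09 in N1ICD arrays, against 8.19, 8.60 and 8.35 in control arrays. The nearest arrays of the groups were 0.10 apart, and the change was -0.57 ± 0.16 (limma adjusted p = 0.0812). It passed under 4 of the 14 alternatives, both filters on dim genes (limma adjusted p = 0.0456 and 0.0307), the trend (0.0307) and the fit without N1ICD replicate 3 (0.0465). Cacna2d4 had 5.36, 5.27 and 5.54 in N1ICD arrays and 5.10, 5.24 and 5.00 in control arrays, a change of 0.28 (limma adjusted p = 0.224) with a gap of 0.02. Cacna2d1, a target of gabapentin, had 10.90, 10.83 and 10.90 in N1ICD arrays and 10.78, 11.02 and 10.84 in control arrays. Its change was -0.00065, with a 95% interval from -0.23 to 0.23. Cacna2d2 overlapped too, with a change of -0.19 (95% interval -0.51 to 0.14).

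Beta subunits bind the pore inside the cell and escort it to the membrane. All 3 measured had a higher mean in N1ICD, as did 10098 of the 22180 genes tested, and Cacnb4 passed the test. Cacnb4 had 7.11, 7.02 and 7.19 in N1ICD arrays, against 6.47, 6.65 and 6.71 in control arrays. The groups were 0.30 apart and the change was 0.49 ± 0.11 (1.41-fold, limma adjusted p = 0.0289). Cacnb2 had 8.56, 8.53 and 8.71 in N1ICD arrays, against 8.10, 8.43 and 8.05 in control arrays, without overlap (0.41 ± 0.12, limma adjusted p = 0.103). It passed under 2 of the 14 alternatives, the filter at the 50th percentile (limma adjusted p = 0.0374) and the trend (0.0437). Cacnb1, the beta subunit of skeletal muscle channels, had means of 7.16 ± 0.05 in N1ICD and 7.08 ± 0.05 in control arrays (SD, n = 3 each) with overlap. Cacnb4 and Cacnb2 each have a second, dimmer probe set. There the change was 0.18 for Cacnb4 and 0.17 for Cacnb2, with overlapping groups. With the mean over probe sets Cacnb4 changed by 0.34 and did not pass (limma adjusted p = 0.144). It also missed the threshold with equal array medians and without each single array (limma adjusted p up to 0.0873, without control replicate 1).

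The gamma family holds muscle calcium channel subunits and the TARPs, which are related to those subunits by sequence. The TARPs carry AMPA-type glutamate receptors to synapses. Of 8 genes, 2 rose, both TARPs (25%, against 3.82% of all genes higher). Cacng4 had 10.78, 10.47 and 10.48 in N1ICD arrays, against 10.05, 10.05 and 10.06 in control arrays. The control arrays lay within 0.01 of each other and the groups were 0.41 apart, a change of 0.52 ± 0.11 (1.44-fold, limma adjusted p = 0.0272). It kept its call with 1 array left out only without N1ICD replicate 3 (limma adjusted p = 0.0478) and lost it without each of the other arrays (up to 0.0897, without control replicate 2). Cacng2, also called stargazin, had 8.86, 8.71 and 8.81 in N1ICD arrays, against 8.32, 8.40 and 8.28 in control arrays. All N1ICD arrays were higher, with a change of 0.46 ± 0.09 (1.38-fold, limma adjusted p = 0.0243), and the second probe set changed by 0.12 with overlap. The call was lost with the mean over both probe sets (0.29, limma adjusted p = 0.123), with the replicate block (limma adjusted p = 0.050006) and without each single array (limma adjusted p up to 0.0995, without control replicate 3).

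The other TARPs overlapped between groups. Cacng7 had 11.32, 10.83 and 10.82 in N1ICD arrays and 10.94, 10.83 and 10.84 in control arrays, so that N1ICD replicate 1 alone lay high (0.12, 95% interval -0.21 to 0.45). Cacng3, Cacng5 and Cacng8 changed by 0.23, -0.05 and -0.00. The muscle subunits Cacng1 and Cacng6 had changes of 0.17 and 0.18 at 6-array means of 5.50 and 5.55, below every array median. In the RefSeq gene order, Cacng1, Cacng4 and Cacng5 lie side by side with 0 protein-coding genes between them, and of these neighbours Cacng4 alone passed. Cacng7, Cacng8 and Cacng6 form another such run, in which no gene passed in limma at either the adjusted or the unadjusted threshold.

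The pores of sodium channels gave no call among 8 genes in limma, with 2 at an unadjusted p under 0.05, a share near the 19.9% of all genes. The largest difference was that of Scn9a, a pore of sensory and sympathetic neurons and of endocrine cells. It had 7.22, 6.60 and 7.44 in N1ICD arrays, against 7.62, 7.99 and 8.15 in control arrays. The arrays did not overlap, but N1ICD replicate 2 lay far below the others, and the change of -0.83 ± 0.22 missed the threshold (limma adjusted p = 0.0678). It passed with either filter on dim genes, with an intensity trend and robust eBayes or with array quality weights (limma adjusted p from 0.0236 to 0.0374). Scn7a, an atypical member that senses extracellular sodium, had 3.35, 3.54 and 3.52 in N1ICD arrays, against 4.27, 3.70 and 3.89 in control arrays. This difference of -0.48 ± 0.15 (limma adjusted p = 0.111) came at a signal below every array median.

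Of the pores of central neurons, Scn3a, prominent in the embryonic brain, and Scn8a, the main pore at nodes of Ranvier, had signals above every array median. Scn3a had 8.57, 8.43 and 8.65 in N1ICD arrays and 8.23, 8.59 and 8.50 in control arrays, with overlap (0.11, 95% interval -0.17 to 0.39). Scn8a had 8.79, 7.93 and 8.32 in N1ICD arrays and 8.70, 8.49 and 8.44 in control arrays. Its N1ICD arrays spread over 0.86, with replicate 1 above and replicate 2 below all control arrays (-0.19, 95% interval -0.66 to 0.27). Scn1a and Scn2a, also pores of central neurons, and Scn10a and Scn11a, those of pain-sensing neurons, had 6-array means from 4.05 to 4.70, below every array median, and changes from -0.25 to 0.23 with overlap. Scn11a spread over 0.98 among the control arrays (4.62, 3.80 and 3.63), against 0.24 among the N1ICD arrays. In the RefSeq order Scn1a, Scn9a and Scn7a are neighbours with 0 protein-coding genes between them, with changes of 0.02, -0.83 and -0.48.

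Beta subunits of sodium channels span the membrane once and carry an immunoglobulin-like fold that also serves cell adhesion. Scn3b had 8.08, 8.20 and 8.17 in N1ICD arrays, against 7.31, 7.19 and 7.34 in control arrays. The groups were 0.74 apart, more than 4 times the range of either group, and the change was 0.87 ± 0.10 (limma adjusted p = 0.00114). Of the 6 called channel genes it alone passed under all 14 alternatives (log2 change 0.82 to 0.91, limma adjusted p up to 0.00796). Scn2b and Scn4b had changes of 0.22 and -0.18, with overlap, at 6-array means of 4.75 and 4.67. These lay below every array median.

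**Figure D2:**
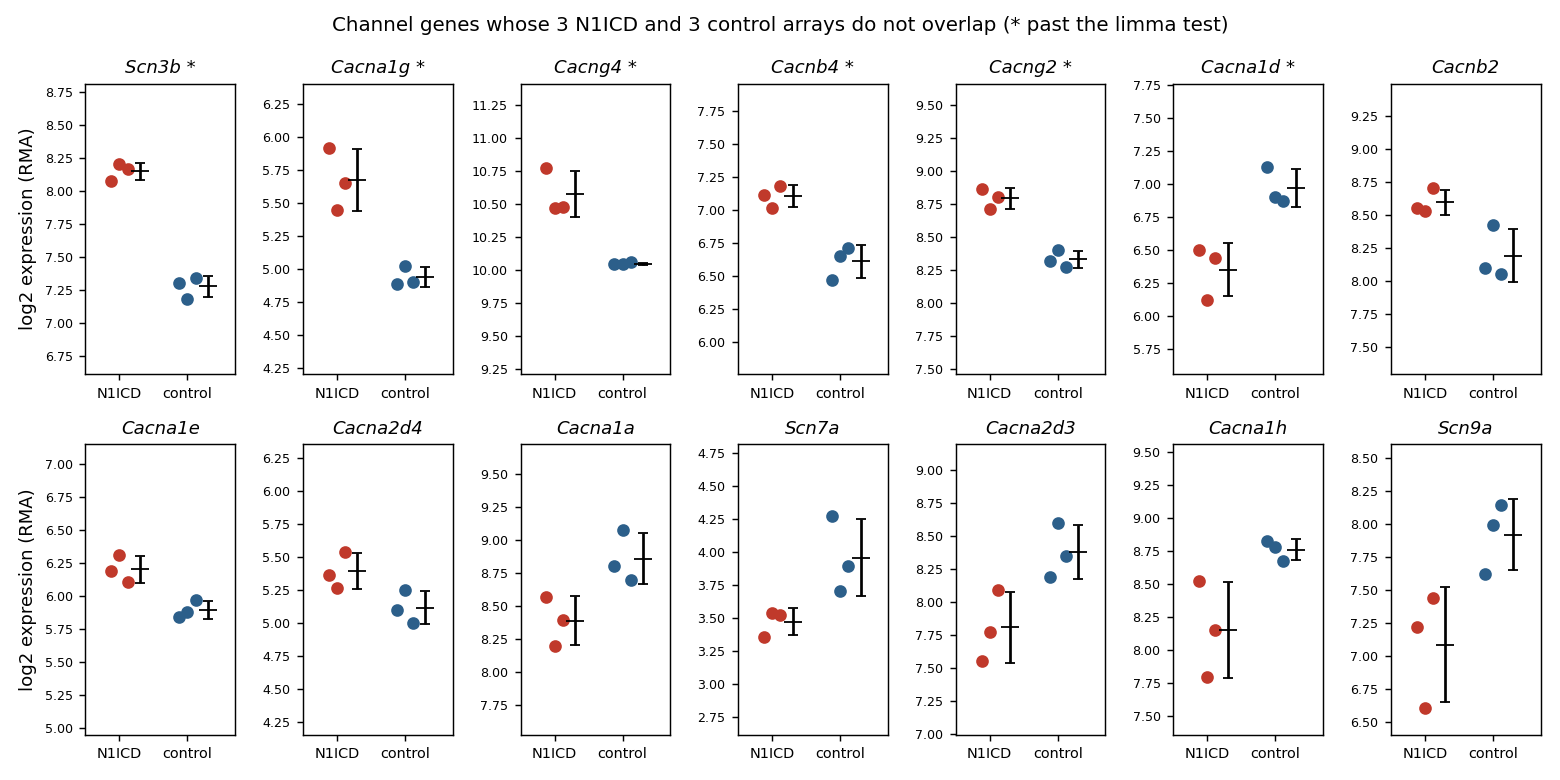
Log2 expression of each array (points; vertical axes of equal length) for the 14 channel genes whose N1ICD and control arrays do not overlap, with the mean and SD of 3 arrays beside them. Scn3b has the widest gap between its groups, 0.74, and Cacna2d4 the narrowest, 0.02.

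N1ICD replicate 2 was the lowest N1ICD array in 10 of these 14 genes, in 6 of the 8 that were higher and in 4 of the 6 that were lower. Over all 36 channel genes it was the lowest N1ICD array in 16, replicate 3 in 13 and replicate 1 in 7. The Notch1 level of replicate 2 was also the lowest of that group, and whether that level bears on these counts was not tested. Without replicate 2, 2 channel genes rose and 0 fell in limma. The log2 changes of Cacna1d, Cacna1h, Cacna1a and Scn9a then lay between -0.59 and -0.38. With each of the other arrays left out, 1 to 3 rose and 0 to 2 fell, so no fit that left out an array gave 5 rises. With all arrays kept, the count of rises ran from 3 to 6 over the processing settings. The highest signals were those of Cacng7, Cacna2d1, Cacng4, Cacna1b and Cacna1a, with 6-array means of 10.9, 10.9, 10.3, 8.73 and 8.63. Probe sets differ in how brightly they report a transcript, so no order of abundance follows.

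**Figure D3:**
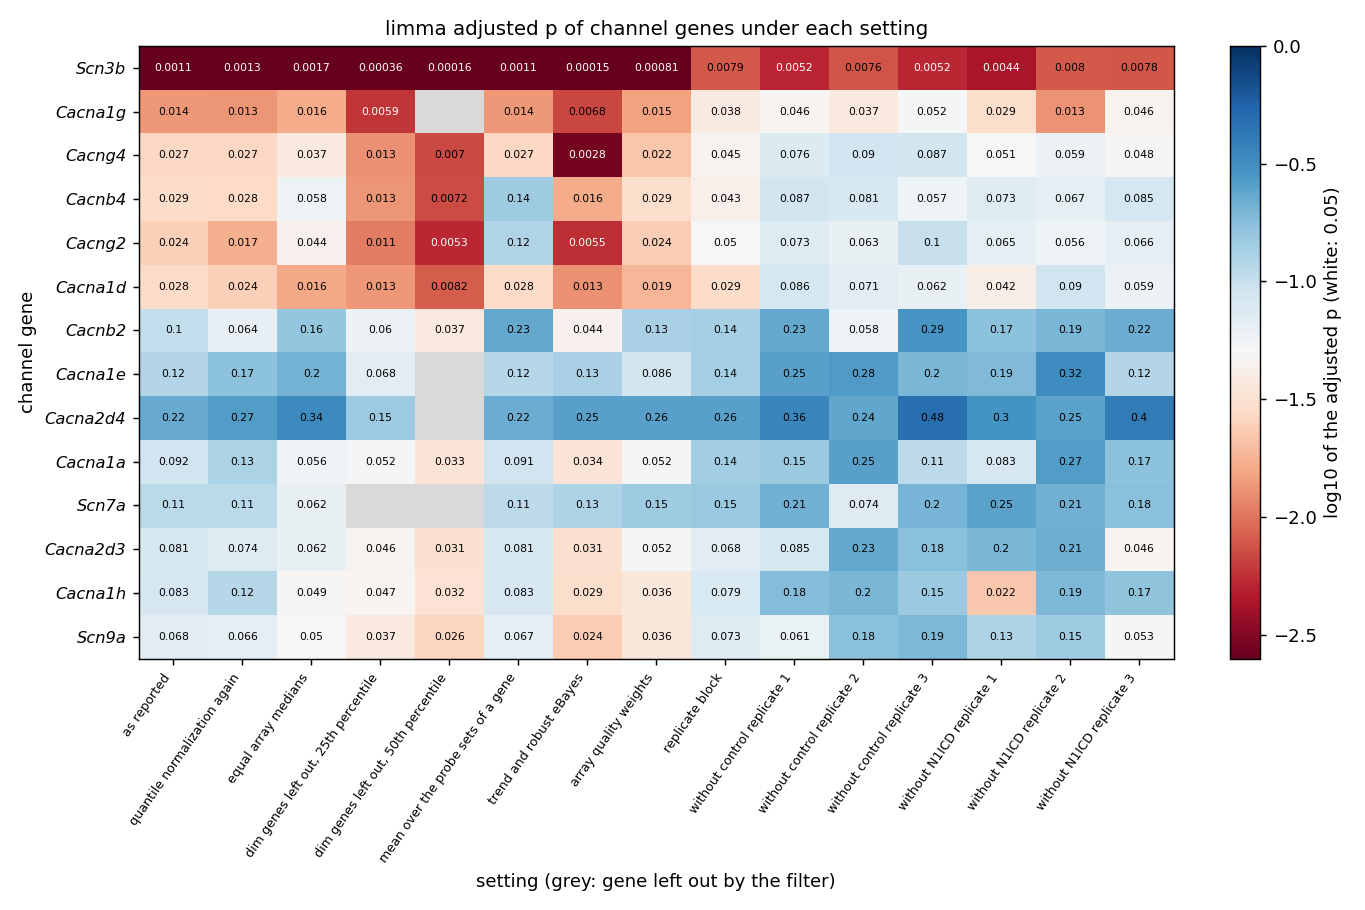
limma adjusted p (number and colour, on a log10 scale; red under 0.05, blue above it) of the 14 channel genes without overlap, one row per gene and one column per setting. The row of Scn3b is red throughout, while Cacnb4 and Cacng2 are blue in each column that leaves out an array.

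The genes that anchor, gate or read out these currents were described from lists of 57 symbols, of which 49 were measured. Of these 6 rose and 5 fell (22.4%, against 7.10% of all genes), and 38 did not pass. Among the 49, 33 lay above every array median, where 11.6% of genes were called. The FGF homologous factors bind the inner tail of sodium channel pores and shift their inactivation, and members of this family went opposite ways. Fgf13 had 8.66, 8.96 and 8.85 in N1ICD arrays, against 7.58, 7.81 and 8.10 in control arrays, a 1.99-fold rise (0.99 ± 0.15, limma adjusted p = 0.00603). Fgf14 had 9.34, 9.14 and 9.53 in N1ICD arrays, against 10.07, 10.02 and 10.29 in control arrays. It fell 1.73-fold (-0.79 ± 0.13, limma adjusted p = 0.00932), and neither gene's groups overlapped. Fgf11 (0.12) and Fgf12 (0.10) did not pass.

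The sodium leak channel Nalcn, a relative of these pores that helps set the resting potential, fell. It had 8.06, 7.94 and 8.15 in N1ICD arrays, against 8.76, 8.80 and 8.84 in control arrays (-0.75 ± 0.10, limma adjusted p = 0.00296), without overlap. Its partners Unc79 and Unc80 had changes of 0.13 and 0.00. Among cytoskeletal anchors the beta spectrin Sptbn1 rose by 0.39 (limma adjusted p = 0.0328), a call lost whichever single array was left out. Ank1, Ank2 and Ank3, Sptbn4 and the channel-directed ubiquitin ligases Nedd4 and Nedd4l did not pass. Of the RGK proteins, which inhibit calcium channels, 3 were measured and none passed in limma. Among them 1 had an unadjusted p under 0.05, against 19.9% of all genes. This was Rem2 (-0.38, limma adjusted p = 0.0654). The STAC adaptors had changes from -0.12 to 0.13.

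Of 20 genes for calcium stores and calcium extrusion, 3 rose and none fell in limma (7.10% of all genes were called), with 5 at an unadjusted p under 0.05, a share near the 19.9% of all genes. Of those 5, Atp2b2 (-0.32, limma adjusted p = 0.131) and Orai2 (-0.33, limma adjusted p = 0.243) were lower in N1ICD and did not pass. The plasma membrane calcium pump Atp2b4 had 6.90, 6.44 and 6.55 in N1ICD arrays, against 5.29, 5.39 and 5.32 in control arrays. This was a 2.46-fold rise (1.30 ± 0.13, limma adjusted p = 0.000781), at a 6-array mean of 5.98, below every array median. The sodium-calcium exchanger Slc8a2 had 6.60, 6.61 and 6.61 in N1ICD arrays, against 5.88, 5.97 and 5.93 in control arrays (0.68 ± 0.09, limma adjusted p = 0.00277). The store release channel Ryr2 had 6.62, 6.43 and 6.42 in N1ICD arrays, against 5.87, 5.70 and 5.80 in control arrays (0.70 ± 0.10, limma adjusted p = 0.00531). In all 3 the groups stood clear of each other, and each call held under every alternative that kept the gene.

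Calmodulin-dependent kinases, which turn calcium entry into phosphorylation, also went both ways, with 1 of 9 higher and 3 lower. The share called was 44.4%, against 7.10% of all genes. Of the 9, 8 lay above every array median, where 11.6% of genes were called. Camk2d had 8.21, 7.93 and 7.99 in N1ICD arrays, against 6.73, 6.62 and 6.93 in control arrays, a 2.43-fold rise (1.28 ± 0.12, limma adjusted p = 0.000554) that held under all 14 alternatives. Camk2b (-0.41), Camkk2 (-0.40) and Camk1d (-0.37) fell, each without overlap, and each lost its call whichever single array was left out (limma adjusted p up to 0.154). Camk2a overlapped between groups, with a change of 0.45 (limma adjusted p = 0.333).

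**Figure D4:**
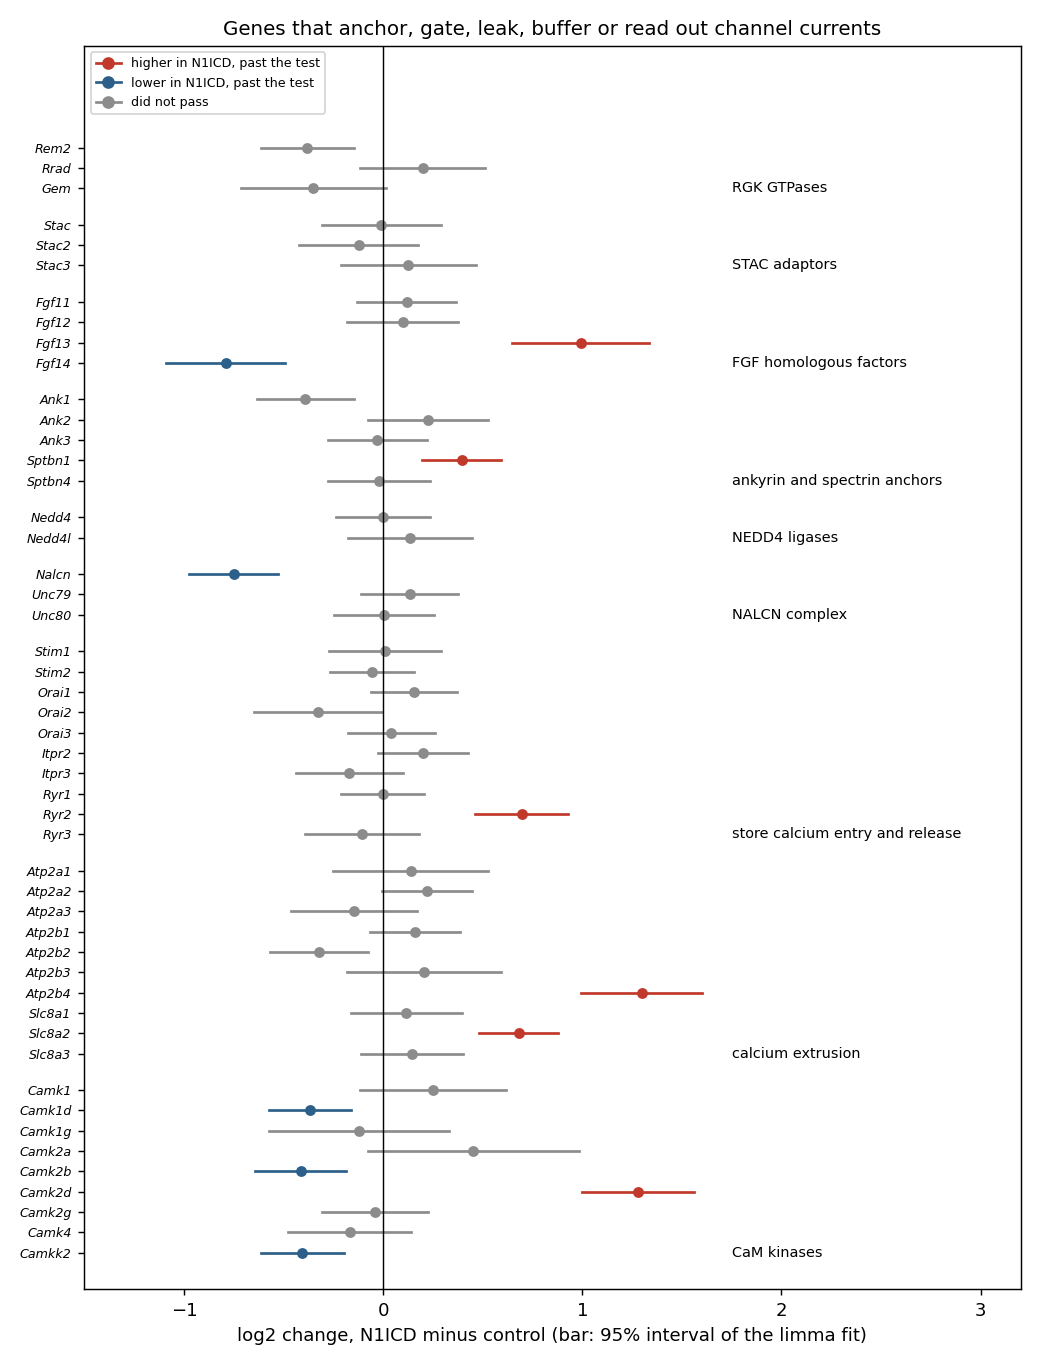
Log2 change (N1ICD minus control, horizontal axis) of the 49 partner genes by list, with 95% intervals of the limma fit as bars and colours for the test result. Fgf13 and Fgf14 stand on opposite sides of 0 (0.99 and -0.79), and Atp2b4 and Camk2d have the highest values (1.30 and 1.28).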

How the data were processed

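RNA of 6 samples was measured, 1 array each. The authors deposited log2 expression per probe set after RMA (background correction, quantile normalization, summary), per the submitters' processing notes, which give no version. Genome build and log base are not given in the sources used here; the base was taken as 2, since values reach 14.1 and natural logarithms of 16-bit intensities end at 11.1. RMA hides changes of total RNA per cell and compresses those of dim probe sets. The annotation gives 23521 of 41345 probe sets 1 symbol, 1814 several and 16010 none. Of the channel genes' probe sets, 39 carry 1 symbol and 1 carries several and was not used.

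For N1ICD minus control, limma 3.58.1 (R 4.3.3; lmFit, eBayes, two-sided tests, Benjamini-Hochberg over 22180 genes, threshold 0.05) was used, and the fit was tested on simulated data. In the simulated data, 25 of 67 log2 changes of 0.5 were called (37.3%), and 65 of 67 changes of 1. Changes near 0.5 were thus often missed there. The simulation gave 165 calls in all, against 1574 in the data, so these shares need not carry over. Each ± is the SE of the fit, or the SD where so marked. The members, lists and alternatives were chosen with earlier results of these data known. Every channel gene is named, in full where it passed or its groups did not overlap, and so are the partner genes that passed; other partner genes and the marker genes were named after their values were seen. Figures were drawn with matplotlib 3.10.9. The number of arrays limits the precision.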

Additional observations from a re-analysis of the deposited data

How the results depend on the processing

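Of 36 channel genes, 4 rose and 2 fell with equal array medians, 5 rose and 4 fell, or 5 and 5, with genes under the 25th or 50th percentile of the 6-array mean left out (30 and 19 channel genes kept), 6 rose and 5 fell with a trend and robust eBayes, and 5 rose and 3 fell with array quality weights. With the mean over probe sets 3 rose. Over all genes 1289 fell with the 50th percentile filter and 1227 with the trend, and 8 partner genes fell with that filter. The channel median was -0.013 with equal medians. With 1 array left out 548 to 709 genes rose and 275 to 585 fell in all, 1 to 3 channel genes rose and 0 to 2 fell, and 2 partner genes fell in each case. Fits of 5 arrays had fewer samples; the other causes were not tested. Replicate numbers were not taken as pairs in the main fit, since the labels state no pairing. Same-numbered arrays correlated at 0.23, 0.01 and 0.20 in their deviations from the group means. Differently numbered arrays correlated at -0.23 to 0.06. The same-numbered value was the highest for N1ICD replicates 1 and 3, and whether the arrays were pairs was not tested. With the replicate block 4 channel genes rose and 1 fell, Cacng2 missing at an adjusted p of 0.050006 (limma). With it 5 partner genes rose and 2 fell. Changes near 0 turned sign, all in genes that did not pass: with equal medians Cacna1i (-0.021), Cacna1b (-0.0056), Scn1a (-0.036) and Cacna1c (-0.021), with array weights Cacna1c (-0.010) and Cacng8 (0.0074). With 1 array left out the ranges that cross 0 were Cacna1s -0.16 to 0.067, Cacng5 -0.11 to 0.00094, Cacna1i -0.12 to 0.14, Scn8a -0.42 to 0.016, Cacna1b -0.012 to 0.092, Scn1a -0.11 to 0.19, Cacna2d1 -0.051 to 0.069, Cacna1c -0.033 to 0.092, Cacng7 -0.044 to 0.21, Cacng8 -0.038 to 0.053 and Scn11a -0.12 to 0.37.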
